A study of Rattus norvegicus with 25 samples.

Results

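The comparison described here is that of the basolateral amygdala (BLA) of unstressed control rats with that of stress-high rats, animals that scored high for anxiety after an acute traumatic exposure. It rests on 9 of the 25 libraries of the series, 6 from control animals (numbers 14, 17, 27, 28, 32 and 35) and 3 from stress-high animals (numbers 7, 19 and 20), 1 library per animal. All animals were adult male Sprague-Dawley rats of wild-type genotype. Stress-high animals were immobilized for 3 h in the presence of predator scent (fox urine) and controls were left undisturbed, and on day 9 the brains were frozen and RNA was taken from pooled tissue punches of the left BLA. Stress-high animals were selected by a composite score of anxiety-like behavior of 13 to 15, whereas the scores of the controls spanned 0 to 6. Stress exposure and behavioral score therefore differ together between these groups and cannot be told apart here. The same holds for the separate room in which the study kept stressed rats for a time after stress. All stress-high animals have numbers of 20 or below, whereas controls 27, 28, 32 and 35 have higher numbers. The study ran its rats in cohorts counterbalanced for control and stressed animals, and the labels do not give the cohort. Stress-low animals (numbers 22, 30 and 34), which had the same stressor and a score of 0 to 2, enter only where they are named.

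Group membership was taken from the library names. The library of animal 35 is named as a control, although its treatment field has the wording of the stressed animals. The dentate gyrus library of the same animal is named as a control and has the treatment wording of the controls. The library of a further control, animal 2, was left out of the comparison because it stood apart from the other controls in the study's principal component analysis. Its summed level of immediate early genes was 678 TPM (a length-normalized transcript level), against 412 to 538 TPM in the 6 controls. Markers of striatal, central and intercalated amygdala neurons summed to 2455 TPM in this library, against 687 to 1481 TPM in the 6 controls. Collagen genes summed to 296 TPM, against 120 to 150 TPM, whereas blood markers at 572 TPM lay within the control range of 415 to 740 TPM.

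The BLA is a part of the amygdala made up mainly of glutamatergic projection neurons with a smaller population of GABA interneurons, and it is known for its part in fear learning and anxiety. Stress hormones act there through corticosteroid receptors, and corticotropin-releasing hormone, neuropeptides and monoamines are known to modulate its output. Myelin and cholesterol are linked in the brain, because oligodendrocytes build membrane from cholesterol that is made within the brain itself.

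Total expected counts (RSEM's estimates of reads per gene) were 12709493 to 17165791 in the control libraries and 14246690 to 22801247 in the stress-high libraries. Slc17a7, the vesicular glutamate transporter that defines cortical and BLA projection neurons, was at 859 to 1184 TPM in the controls and 906 to 1081 TPM in the stress-high animals. Of 10 listed markers of choroid plexus and ependyma, Ttr, Folr1, Clic6, Kcnj13 and Tmem212 were too low to be tested and 4 were tested. Of 7 dentate granule cell markers, Tdo2 was too low and 6 were tested. Those 6 summed to 130 to 179 TPM in the controls and 149 to 157 TPM in the stress-high animals. Markers of striatal, central and intercalated amygdala neurons summed to 1481 TPM in control 35, against 687 to 850 TPM in the other 5 controls and 892 to 1135 TPM in the stress-high libraries. In punched tissue, fewer cells of a type and less RNA per cell cannot be told apart.

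No gene passed the test. Of 15230 genes tested by edgeR's quasi-likelihood method, 0 (0%) had an adjusted p under 0.05 (Benjamini-Hochberg), and the adjusted p was 1 for every gene model named here. At an unadjusted p under 0.05 there were 392 genes (2.57%), of which 176 (1.16%) were higher and 216 (1.42%) were lower in stress-high animals, and DESeq2 gave 2 gene models at an adjusted p under 0.05, of RGD1565183 and CALCOCO1, both names that the annotation gives to more than 1 model. The fitted fold change was above 0 for 7379 genes (48.5%), and the median log2 fold change of all genes was -0.0037. In 58 genes (0.381%) all 3 stress-high TPM values lay above those of all 6 controls, and in 91 genes (0.598%) they lay below. On the first 2 principal components of the 9 libraries, which held 19.7% and 17.6% of the variance, the groups did not separate (exact two-sided permutation test, p = 0.726 and p = 0.512, where the smallest possible p was 0.0119). The genes described below are therefore those with the smallest unadjusted p, and lists of genes known for their roles, given as values and not as genes that passed a test. Values of single libraries are TPM, and log2 fold changes are fitted on expected counts and given as stress-high over control with their standard error (SE), whose median over all genes was 0.11.

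Among the 10 genes with the smallest unadjusted p that were higher in stress-high animals, genes of neuropeptide signaling took the first and the fifth place. Tac1, which encodes the precursor of substance P and neurokinin A, was at 6.44 to 9.19 TPM in the controls (median 7.46) and at 10.4, 13.0 and 11.7 TPM in animals 7, 19 and 20. Every stress-high value lay above every control value, and the log2 fold change was 0.63 ± 0.14 (SE; unadjusted p = 0.000406). Npsr1, the receptor for neuropeptide S, a peptide known for its effects on arousal and anxiety, was low in all libraries, at 0.61 to 1.53 TPM in the controls (median 1.22) and at 2.34, 2.52 and 4.73 TPM in the stress-high animals. These values also did not overlap (log2 fold change 1.41 ± 0.38, unadjusted p = 0.00245), and animal 20 stood well above the other 2.

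Pcp4 (also known as PEP-19), a small calmodulin-binding protein of neurons, was at 198 to 259 TPM in the controls (median 212) and at 289, 275 and 343 TPM in the stress-high animals. The groups did not overlap, with a log2 fold change of 0.48 ± 0.11 (unadjusted p = 0.00065). Tac1 and Pcp4 both belong to the marker list of striatal, central and intercalated amygdala neurons. Of the 21 tested genes of that list, 13 were higher and 8 were lower in stress-high animals, with a median log2 fold change of 0.04. Averaged over the list on the log2(TPM + 1) scale, animals 7, 19 and 20 deviated from the control mean by 0.10, 0.01 and 0.35, while control 35 deviated by 0.79 and the other controls by -0.31 to 0.01. Whether the share of such cells in the punches had a part in the values of Tac1 and Pcp4 was not tested. Without control 35 the log2 fold change of Pcp4 was 0.55.

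Cxcl16, a chemokine that is also made as a membrane-bound form, was at 1.03 to 1.96 TPM in the controls (median 1.44) and at 3.05, 2.09 and 4.0 TPM in the stress-high animals (log2 fold change 1.03 ± 0.24, unadjusted p = 0.000791). Mrpl1, a protein of the large subunit of the mitochondrial ribosome, was at 6.33 to 14.7 TPM in the controls (median 12.0) and at 20.1, 19.2 and 16.6 TPM in the stress-high animals (0.74 ± 0.20, unadjusted p = 0.00211). LYRM1, a member of the LYR motif family that includes mitochondrial proteins, was at 4.11 to 5.45 TPM (median 5.10) and at 6.41, 6.93 and 6.62 TPM (0.42 ± 0.14, unadjusted p = 0.0072). In each of these 3 genes the stress-high values all lay above the control values, by the narrowest margin in Cxcl16, where animal 19 was close to the highest control.

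The other 4 of the 10 were moderately to highly expressed. Acat2, the enzyme that makes acetoacetyl-CoA in the first step toward cholesterol, is described with its pathway below. Ncoa3, a coactivator of nuclear receptors, was at 8.07 to 11.5 TPM in the controls (median 9.30) and at 11.4, 10.7 and 12.6 TPM in the stress-high animals, with a log2 fold change of 0.30 ± 0.08 (unadjusted p = 0.00246). Mpped1, a metallophosphoesterase of the brain, was at 31.3 to 52.1 TPM (median 35.4) and at 43.4, 49.5 and 52.1 TPM (0.37 ± 0.12, unadjusted p = 0.00763). Adipor2, a receptor for adiponectin, was at 15.6 to 20.9 TPM (median 18.7) and at 23.5, 19.2 and 24.8 TPM (0.27 ± 0.09, unadjusted p = 0.00778). In Ncoa3, Mpped1 and Adipor2 the groups overlapped, and in each of them at least 1 stress-high animal lay within the control range.

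**Figure D1:**
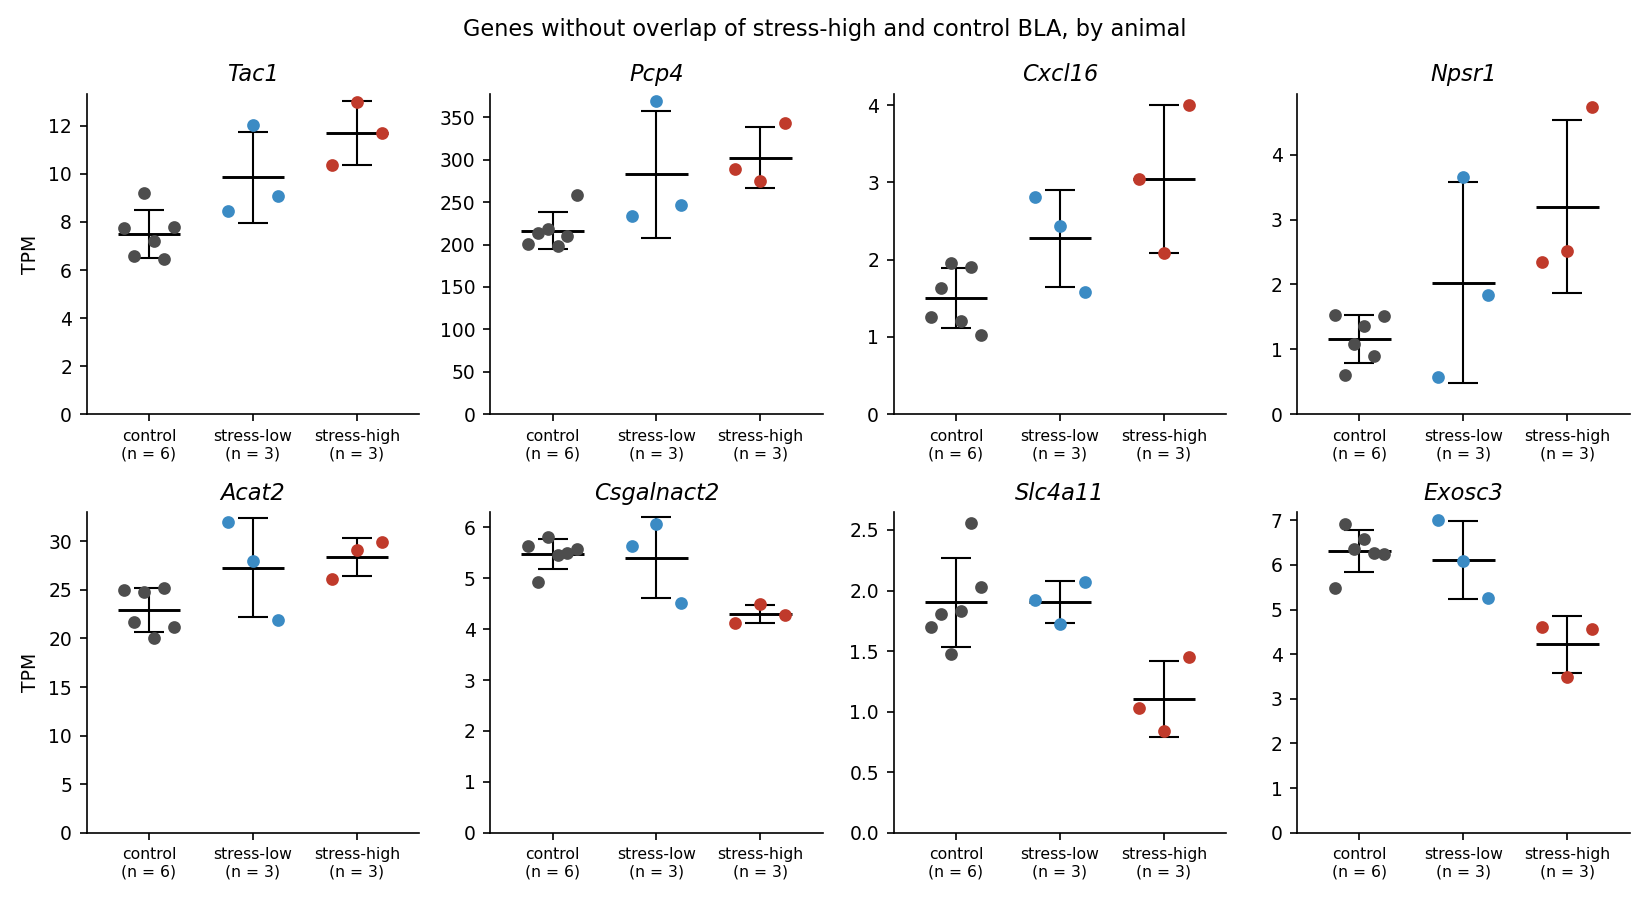
TPM of Tac1, Pcp4, Cxcl16, Npsr1, Acat2, Csgalnact2, Slc4a11 and Exosc3 in the BLA (vertical axis, each panel on its own scale). There is 1 point per animal in the control (without animal 2), stress-low and stress-high groups. Long horizontal lines mark the group means and error bars 1 SD. The genes were picked among those of small unadjusted p whose stress-high and control values did not overlap, so the separation of these groups follows from the choice. For Tac1 the 3 stress-high points lie between 10.4 and 13.0 TPM, above the highest control at 9.19 TPM, and for Slc4a11 they lie between 0.84 and 1.45 TPM, below the lowest control at 1.48 TPM.

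The 10 genes at the other end, lower in stress-high animals, did not share a single role. Csgalnact2, an enzyme that starts and extends chondroitin sulfate chains, was at 4.93 to 5.81 TPM in the controls (median 5.54) and at 4.13, 4.49 and 4.27 TPM in the stress-high animals (log2 fold change -0.35 ± 0.09, unadjusted p = 0.0024). Slc7a11, the cystine and glutamate exchanger of astrocytes, was at 25.5 to 33.7 TPM (median 27.2) and at 21.8, 24.2 and 24.8 TPM (-0.26 ± 0.08, unadjusted p = 0.00608). Slc4a11, a membrane transporter of the bicarbonate transporter family, was at 1.48 to 2.56 TPM (median 1.82) and at 1.03, 0.84 and 1.45 TPM (-0.78 ± 0.23, unadjusted p = 0.0037). In these 3 genes every stress-high animal lay below every control, in Slc4a11 by a small margin for animal 20.

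RNA processing and mitochondrial genes were also among them. Exosc3, a subunit of the RNA exosome, was at 5.49 to 6.92 TPM in the controls (median 6.31) and at 4.61, 3.49 and 4.57 TPM in the stress-high animals (-0.56 ± 0.17, unadjusted p = 0.0058). Pet117, a factor for the assembly of cytochrome c oxidase, was at 3.48 to 8.49 TPM (median 7.06) and at 2.59, 1.63 and 3.12 TPM (-1.37 ± 0.40, unadjusted p = 0.00421). RGD1563834 was at 19.3 to 28.8 TPM (median 22.5) and at 18.1, 12.4 and 11.5 TPM (-0.68 ± 0.20, unadjusted p = 0.00429). The groups did not overlap in any of these 3, and in RGD1563834 animal 7 was close to the lowest control.

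Myl3, a myosin light chain of heart and slow muscle, was near the limit of detection, at 0.87 to 2.11 TPM in the controls (median 1.42) and at 0.64, 0.24 and 0.68 TPM in the stress-high animals (-1.38 ± 0.40, unadjusted p = 0.00395). Its groups did not overlap. The last 3 genes overlapped between the groups. Tmem198, a membrane protein, was at 27.4 to 35.3 TPM in the controls and at 24.2, 24.6 and 28.1 TPM in the stress-high animals (-0.24 ± 0.07, unadjusted p = 0.0036). Krt2, a keratin, was at 1.51 to 8.65 TPM and at 1.27, 1.10 and 2.94 TPM (-1.60 ± 0.50, unadjusted p = 0.00643). Gm10644 was at 3.35 to 14.2 TPM and at 3.45 and 3.96 TPM in animals 7 and 20, and it was listed at 0 in animal 19 (-1.73 ± 0.54, unadjusted p = 0.00647). The controls themselves spread widely in Krt2 and Gm10644.

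Stress-low animals, compared in the same fit with the same controls, gave other values for some of these genes. Their log2 fold changes over control were -0.05 ± 0.08 for Ncoa3, -0.06 ± 0.09 for Csgalnact2, -0.04 ± 0.21 for Slc4a11, -0.01 ± 0.19 for RGD1563834 and -0.09 ± 0.17 for Exosc3, so that stress-low animals were near the controls in these 5. For Mrpl1 and Slc7a11 they were 0.64 ± 0.20 and -0.29 ± 0.08, close to the values of stress-high animals, and for Myl3 they were -1.80 ± 0.43. For Tac1, Pcp4 and Cxcl16 they were 0.34 ± 0.14, 0.34 ± 0.11 and 0.56 ± 0.25, on the same side as in stress-high animals. Control animal 2, which was left out, had 5.78 TPM for Tac1, 333 TPM for Pcp4 and 3.65 TPM for Cxcl16, the last 2 within the range of the stress-high animals. It also lay within their range for Npsr1 (2.44 TPM), Acat2 (26.7 TPM) and Slc7a11 (22.2 TPM), and above it for LYRM1 (7.37 TPM). For Mrpl1, Csgalnact2, Slc4a11, Exosc3, Pet117, RGD1563834 and Myl3 it lay outside their range on the side of the controls. Both comparisons use the same 6 control libraries, and the genes were picked by their stress-high values, so these numbers are set side by side without a test. In the dentate gyrus (DG) of the same study, stress-high animals differed from controls by 0.17 ± 0.29 for Tac1 and 0.00 ± 0.12 for Pcp4. The DG values were 0.13 ± 0.21 for Cxcl16, -0.04 ± 0.08 for Ncoa3 and 0.44 ± 0.36 for RGD1563834. They were -0.24 ± 0.14 for Csgalnact2, -0.16 ± 0.16 for Slc4a11 and -0.01 ± 0.17 for Exosc3. For Mrpl1 and Slc7a11 they were 0.18 ± 0.22 and -0.12 ± 0.08, and Myl3 had no DG value. A test of whether the fold change differed between the BLA and the DG passed in 0 of 13865 genes (0%) at an adjusted p under 0.05 by edgeR's quasi-likelihood test, with 231 genes at an unadjusted p under 0.05. Stress-high animals 7, 19 and 20 and controls 14, 17, 28 and 32 gave a library to both regions, and the fit has no term for the animal. DESeq2 gave 2, a model of Smg6 and a gene without a name.

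Genes of cholesterol synthesis were mostly a little higher in stress-high animals. Of 23 tested genes, 22 had a fitted fold change above 0, with a median log2 fold change of 0.11 and a range of -0.02 to 0.31, against 48.5% and -0.0037 for all genes. The 5 with an unadjusted p under 0.05 (Acat2, Ebp, Insig1, Sqle and Fdft1) were all higher. Of all genes tested, 2.57% had an unadjusted p under 0.05. Acat2 was at 20.1 to 25.2 TPM in the controls (median 23.2) and at 26.2, 29.1 and 30.0 TPM in the stress-high animals (0.31 ± 0.09, unadjusted p = 0.00476), with no overlap. Insig1, which holds back the processing of the sterol-sensing transcription factors, was at 47.7 to 60.8 TPM (median 54.0) and at 50.8, 65.4 and 72.6 TPM (0.21 ± 0.07, unadjusted p = 0.0131). Here animals 19 and 20 lay above all controls, whereas animal 7 lay among them.

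Ebp, the sterol isomerase of the late pathway, was also without overlap (log2 fold change 0.31, 95% interval 0.07 to 0.56). Sqle, the squalene epoxidase, and Fdft1, the squalene synthase, had 0.17 (0.01 to 0.33) and 0.16 (0.00 to 0.31). Hmgcs1, an enzyme of the early pathway, had 0.10 (-0.05 to 0.25). Srebf2, the transcription factor that drives the pathway, had 0.14 (-0.03 to 0.32). Dhcr7 was at 0.00 and Pmvk at -0.02.

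**Figure D2:**
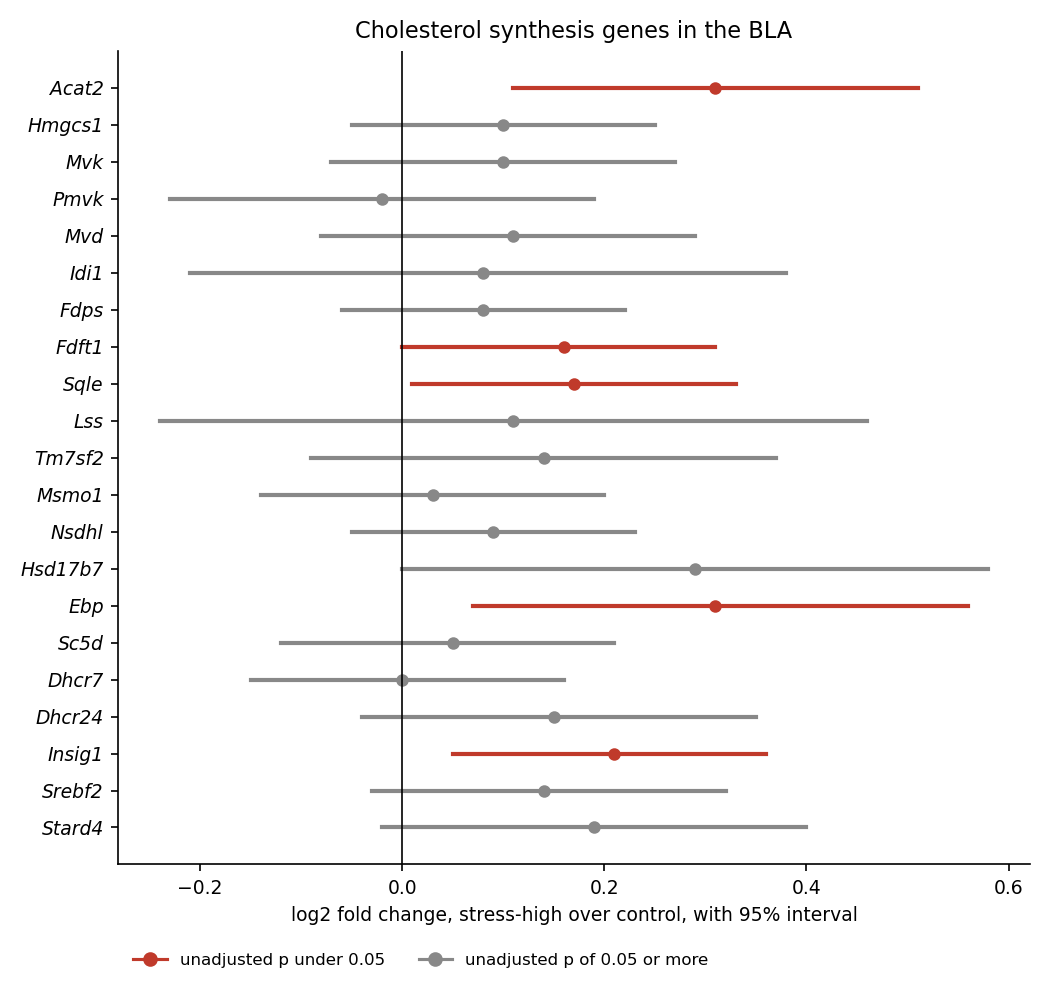
Log2 fold change of 21 of the 23 tested cholesterol synthesis genes, stress-high over control (horizontal axis), with points at the fitted value and lines for the 95% interval, in the order of the pathway, followed by regulators and transport genes. Genes with an unadjusted p under 0.05 are in red. The points lie between -0.02 and 0.31, and most intervals cover 0.

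The list average differed among the stress-high animals. Relative to the control mean it was -0.04 in animal 7, 0.10 in animal 19 and 0.32 in animal 20 on the log2 scale, while the controls ran from -0.17 to 0.15. Only animal 20 lay outside the control range, and all 23 of its genes were above the control mean, as were 19 of 23 in animal 19 and 7 of 23 in animal 7. Animal 20 also lay above the control range in lists of other roles, with averages of 0.20 for insulin and IGF signaling (25 of 26 genes above the control mean), 0.18 for synaptic vesicle fusion (21 of 21) and 0.22 for potassium channels (31 of 33). In animal 7 the averages of these 3 lists were -0.18, -0.19 and -0.16. Of the 35 lists examined, 19 lay above the control range in animal 20 and 16 below it in animal 7. The part of this spread in the cholesterol values was not tested. Without animal 20 the median log2 fold change of the list was 0.07, and without animal 7 it was 0.17. Stress-low animals, set against the same controls, had 21 of 23 genes higher with a median of 0.11, and between stress-high and stress-low animals 15 of 23 were higher with a median of 0.02. In the DG 17 of 23 were higher, with a median of 0.07.

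Promoter sequences are shown for 3 of these genes because the pathway is known to be controlled through promoter elements. The sequences are those of RefSeq (assembly GRCr8) and run from 250 bases before to 50 bases after the annotated start. Capitals mark the letters CCAAT on either strand, the box bound by NF-Y, a factor known to act with the sterol-regulated factors. Acat2 (chr1:50100590-50100889, plus strand) had no match, Ebp (chrX:16971212-16971511, plus strand) had 2, and Insig1 (chr4:8057720-8058019, minus strand) had 1.
Acat2: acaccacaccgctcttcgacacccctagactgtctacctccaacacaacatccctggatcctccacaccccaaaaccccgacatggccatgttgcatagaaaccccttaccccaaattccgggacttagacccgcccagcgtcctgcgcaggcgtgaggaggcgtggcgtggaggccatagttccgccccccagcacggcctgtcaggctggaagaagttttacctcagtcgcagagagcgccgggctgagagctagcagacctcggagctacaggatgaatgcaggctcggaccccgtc
Ebp: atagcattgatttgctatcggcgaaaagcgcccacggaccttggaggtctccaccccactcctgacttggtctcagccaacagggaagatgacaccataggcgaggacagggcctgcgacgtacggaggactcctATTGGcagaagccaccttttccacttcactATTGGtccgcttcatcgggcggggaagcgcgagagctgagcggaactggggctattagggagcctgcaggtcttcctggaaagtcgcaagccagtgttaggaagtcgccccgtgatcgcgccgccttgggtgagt
Insig1: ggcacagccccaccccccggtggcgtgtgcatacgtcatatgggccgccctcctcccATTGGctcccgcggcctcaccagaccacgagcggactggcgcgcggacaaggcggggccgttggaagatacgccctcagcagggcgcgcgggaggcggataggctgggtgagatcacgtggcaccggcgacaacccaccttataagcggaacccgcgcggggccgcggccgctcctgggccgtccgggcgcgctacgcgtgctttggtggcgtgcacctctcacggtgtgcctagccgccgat
Of the 23 tested genes, 16 had a promoter in the table. CCAAT on either strand was present in 14 of these 16 (87.5%), against 37.7% of all 27457 RefSeq promoters and 37% of the 10252 promoters matched to genes tested in the BLA. The core of the sterol regulatory element, searched as TCACNCCAC on both strands, was in 0 of the 16 and in 1.15% of all promoters. A match of letters is a description of the window only, and it was tested against no binding data.

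Myelin genes were higher in stress-high animals by little, in 18 of 18 tested markers of oligodendrocytes and myelin against all 6 controls and in 14 of 18 against the 3 controls whose library name carries the score label LOW. Against all 6 controls the log2 fold changes ran from 0.04 to 0.18 with a median of 0.11, and 0 had an unadjusted p under 0.05. Of all genes tested, 48.5% were higher and 2.57% had an unadjusted p under 0.05. Mag, a myelin adhesion protein, was at 64.7 to 90.9 TPM in the controls (median 78.5) and at 73.4, 96.6 and 98.1 TPM in the stress-high animals (0.18 ± 0.11, unadjusted p = 0.116). Myrf, the transcription factor of myelin formation, had a log2 fold change of 0.11 ± 0.08 and MBP, myelin basic protein, one of 0.15 ± 0.11. In all 3 genes the groups overlapped.

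These genes varied together within an animal, so that 18 genes do not count as 18 observations. The list average relative to the control mean was -0.04 in animal 7, 0.20 in animal 19 and 0.16 in animal 20, and it was -0.24 to 0.13 in the controls, so that animals 19 and 20 lay just above the control range and animal 7 within it. The sum over the list was 3319, 3898 and 3654 TPM in the stress-high animals and 2780 to 3749 TPM in the controls. Stress-low animals were higher than the same controls in 18 of 18 genes (median 0.18), with animal 30 at a list average of 0.52. The value depended on which animals were used. The median was 0.06 without stress-high animal 19 and 0.07 without control 17. It was 0.22 against the 3 controls whose library name carries the score label HI and 0.03 against the 3 with the label LOW.

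Among markers of oligodendrocyte progenitors, 4 of 6 were higher, with a median of 0.05. Enpp6, a marker of newly forming oligodendrocytes, was at 2.78 to 4.42 TPM in the controls (median 3.33) and at 4.69, 4.63 and 4.75 TPM in the stress-high animals. The groups did not overlap, and the log2 fold change was 0.46 ± 0.23 (unadjusted p = 0.0657). Stress-low animals had 4.39, 11.3 and 5.78 TPM. C1ql1 had a log2 fold change of 0.14 ± 0.14.

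Immediate early genes, which are switched on by neuronal activity, tended to the lower side. Of 20 tested genes, 16 had a fitted fold change below 0 and 4 above, with a median of -0.13, and 1 had an unadjusted p under 0.05. Of all genes tested, 48.5% were above 0 and 2.57% had an unadjusted p under 0.05. The median of the list was -0.07 without stress-high animal 19, -0.22 without animal 7 and -0.24 with control animal 2 included. The 1 gene was Egr3, an activity-dependent transcription factor, at 29.9 to 43.6 TPM in the controls (median 37.4) and at 28.2, 29.0 and 36.7 TPM in the stress-high animals (-0.26 ± 0.11, unadjusted p = 0.0339). Animals 7 and 19 lay below all controls and animal 20 lay among them. Nr4a2, an orphan nuclear receptor, lay on the other side at 0.25 ± 0.14 (unadjusted p = 0.0856).

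The archetypal members were near 0. Fos was at 2.47 to 7.27 TPM in the controls and at 5.84, 3.14 and 4.88 TPM in the stress-high animals (log2 fold change -0.03, 95% interval -0.71 to 0.66), and Egr1 had 0.04 (-0.14 to 0.21). For Fos and Egr1 the sign was not stable across settings and no direction is given. The list average was -0.09, -0.29 and 0.05 in animals 7, 19 and 20 and -0.26 to 0.13 in the controls, so that animal 19 alone lay outside the control range, narrowly. These genes also varied together within an animal, with 14 of 20 above the control mean in control 14 and 3 of 20 in control 35. The 20 genes therefore do not count as 20 observations. Stress-low animals, against the same controls, had 1 of 20 genes above 0 and a median of -0.24.

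**Figure D3:**
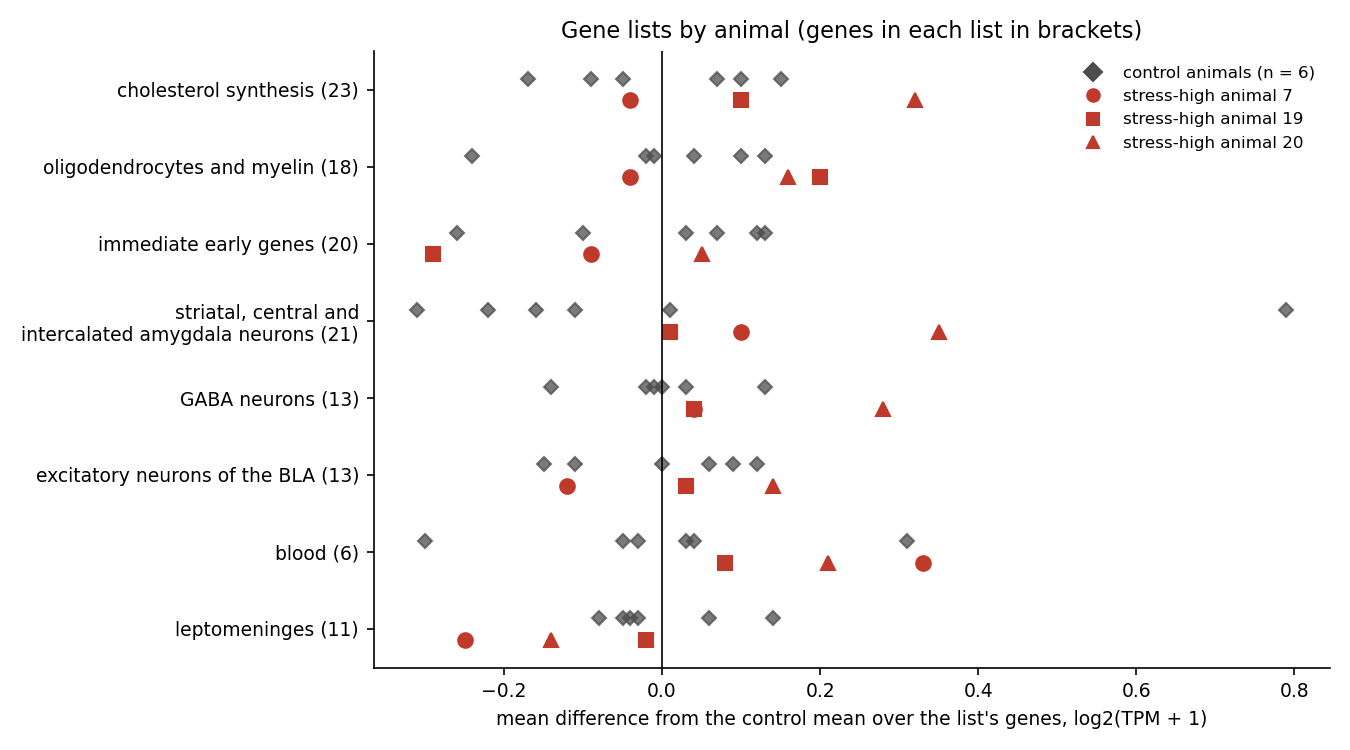
Mean deviation from the control mean over the genes of a list, on the log2(TPM + 1) scale (horizontal axis), for 8 lists (rows), with grey diamonds for the 6 control animals and red symbols for stress-high animals 7, 19 and 20. In the cholesterol list animal 20 sits at 0.32, above all 6 controls, while animal 7 sits at -0.04 within them. Among striatal, central and intercalated amygdala neurons 1 control, animal 35, sits at 0.79.

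Genes of the glucocorticoid response showed 1 member with an unadjusted p under 0.05 among 17 tested, with 10 higher and a median of 0.05. The share of all genes tested with an unadjusted p under 0.05 was 2.57%. Tsc22d3 (GILZ), a classical target of the glucocorticoid receptor, was at 29.5 to 35.6 TPM in the controls (median 32.8) and at 45.6, 34.2 and 41.0 TPM in the stress-high animals (0.31 ± 0.11, unadjusted p = 0.0114). Animals 7 and 20 lay above all controls, and without animal 7 the log2 fold change was 0.14. Cdkn1a, a cell cycle inhibitor, was at 2.05 to 3.21 TPM and at 3.22, 3.22 and 3.30 TPM (0.32 ± 0.15, unadjusted p = 0.054), with the groups just apart.

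The receptors themselves differed little between the groups. The glucocorticoid receptor is split over 2 gene models with this name in the annotation, Nr3c1 and NR3C1, which makes each uncertain, and their log2 fold changes were 0.06 (95% interval -0.09 to 0.20) and 0.00 (-0.20 to 0.20). The mineralocorticoid receptor Nr3c2 was at -0.04 (-0.20 to 0.12). Fkbp5, a co-chaperone induced by glucocorticoids, had 0.05 (-0.10 to 0.21) and Sgk1, a kinase induced by them, had 0.04 (-0.28 to 0.36).

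In the corticotropin-releasing hormone (CRH) system 2 of 5 tested genes were higher, with a median of -0.10 and none at an unadjusted p under 0.05. Crh was low at 1.02 to 1.92 TPM in the controls and at 0.93, 1.28 and 1.57 TPM in the stress-high animals (log2 fold change -0.20, 95% interval -0.77 to 0.38). The receptor Crhr1 had -0.10 (-0.33 to 0.13), the binding protein Crhbp had -0.14 (-0.46 to 0.18), and the related peptide Ucn had 0.52 (-0.65 to 1.69). The intervals of Crh and Ucn are wide at these low levels, so that sizable differences in either direction were not detectable with these libraries. Ucn2 and Ucn3 were too low to be tested.

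Of the neuropeptide precursors, 8 of 16 tested genes were higher. Tac1 and Grp were the only ones with an unadjusted p under 0.05, against 2.57% of all genes tested. Grp, the precursor of gastrin-releasing peptide, which BLA projection neurons release onto interneurons, was at 9.46 to 24.7 TPM in the controls (median 21.6) and at 14.7, 6.88 and 10.6 TPM in the stress-high animals (-0.84 ± 0.35, unadjusted p = 0.0294). Animal 19 alone lay below all controls. In the DG the difference for Grp was -1.09 ± 0.51. The opioid precursor PENK was at 190 to 645 TPM in the controls and at 346, 285 and 361 TPM in the stress-high animals (0.03, 95% interval -0.74 to 0.80), where the highest control was again animal 35. Npy, the precursor of neuropeptide Y, had 0.37 (-0.63 to 1.37) and Sst, the somatostatin precursor, had -0.01 (-0.24 to 0.22).

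Opioid receptors differed little, with 3 of 4 higher and the largest fold changes in the kappa receptor Oprk1 (0.13 ± 0.10) and the nociceptin receptor Oprl1 (0.08 ± 0.09). In the oxytocin and vasopressin system 2 of 4 tested genes were higher. Oxtr, the oxytocin receptor, was at 0.32 ± 0.26 and the vasopressin receptor Avpr2 at -0.79 ± 0.47, both at about 1 TPM. The peptides Oxt and Avp were too low to be tested.

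Growth factor genes had small differences. Of 26 tested genes of insulin and IGF signaling 14 were higher (median 0.01), with Rab31, a trafficking protein, at 0.11 ± 0.05 and Irs2, an insulin receptor substrate, at -0.10 ± 0.07. The insulin receptor Insr was at -0.03 (95% interval -0.18 to 0.12), and Igf2 was at -0.25 (-0.64 to 0.15). Of 15 tested genes of activin and inhibin signaling 10 were lower. An unadjusted p under 0.05 was found in 2 of them, and in 2.57% of all genes tested. Inhba, the subunit of activin A, was at 0.58 to 1.52 TPM in the controls and at 0.29, 0.42 and 0.94 TPM in the stress-high animals (-0.93 ± 0.42, unadjusted p = 0.0457). Fstl3, a secreted activin antagonist, was at 1.04 to 1.73 TPM and at 0.75, 0.97 and 1.09 TPM (-0.53 ± 0.23, unadjusted p = 0.0399). The groups overlapped in both, and the other activin subunit Inhbb was at 0.19 (-0.34 to 0.71). Of 7 tested neurotrophin genes 4 were lower, with Ntrk3, the receptor for neurotrophin-3, at -0.19 ± 0.07 (unadjusted p = 0.0243), Sort1 at 0.09 ± 0.07 and Bdnf at -0.24 (-0.70 to 0.22).

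Neurotransmitter receptors were close to the controls as groups. Of the AMPA, NMDA and kainate receptor subunits 9 of 16 were higher (median 0.03), with the smallest unadjusted p in GRIN3A (0.16 ± 0.09) and Gria4 (0.14 ± 0.09), while GRIA1 was at -0.05 (95% interval -0.17 to 0.07) and Grin1 at 0.04 (-0.08 to 0.17). These narrow intervals bound the differences of GRIA1 and Grin1 alone, and the fitted values of all 16 subunits ran from -0.08 to 0.26. Among metabotropic glutamate receptors 3 of 7 were higher, with Grm2 at -0.22 ± 0.18 and Grm8 at 0.11 ± 0.11. Of the GABA-A receptor subunits 9 of 14 were higher (median 0.01), with Gabrb2 at 0.15 ± 0.10 and Gabra4 at -0.09 ± 0.06.

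The monoamine receptors held 2 of 21 tested genes with an unadjusted p under 0.05, 1 in each direction. The share over all genes tested was 2.57%. Drd5, a dopamine receptor of the D1 class, was at 0.08 to 0.77 TPM in the controls (median 0.52) and at 1.0, 1.45 and 0.80 TPM in the stress-high animals (1.14 ± 0.42, unadjusted p = 0.0171). The values did not overlap, but animal 20 was just above the highest control and the level was low. Adra1a, an adrenergic receptor, was at 8.80 to 10.5 TPM and at 6.18, 7.43 and 10.1 TPM (-0.27 ± 0.12, unadjusted p = 0.0378), where animals 7 and 19 lay below all controls. The serotonin receptor Htr2c was at 0.00 (95% interval -0.38 to 0.38).

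Synaptic and channel genes showed equally small values. Sv2a, a protein of synaptic vesicles, was at 184 to 225 TPM in the controls and at 199, 219 and 261 TPM in the stress-high animals (0.12 ± 0.05, unadjusted p = 0.0427), within a vesicle list in which 13 of 21 genes were higher (median 0.01). Rims2, which has more than 1 gene model and is uncertain, was at 0.15 ± 0.08. In potassium channels 19 of 33 genes were higher (median 0.02), with Kcnh1 at 0.17 ± 0.08 and Kcnc1 at 0.14 ± 0.07. Of the endocannabinoid genes 3 of 6 were higher, and Abhd6, a hydrolase of 2-arachidonoylglycerol, was at 36.6 to 41.7 TPM and at 32.5, 33.9 and 39.1 TPM (-0.13 ± 0.06, unadjusted p = 0.0478). Faah, which degrades anandamide, was at -0.17 ± 0.09 and is uncertain for the same reason as Rims2.

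The remaining groups lay near the value of all genes. The median was -0.02 for 16 genes of perineuronal nets and matrix (Mmp9 -0.84 ± 0.43, Has1 -0.36 ± 0.23), 0.01 for 22 collagen genes (Col3a1 -0.83 ± 0.43, Col1a1 -0.86 ± 0.49) and -0.01 for 16 genes of DNA methylation (Tet1 0.32 ± 0.16, Gadd45b -0.29 ± 0.16). It was 0.00 for 17 circadian clock genes (ARNTL -0.14 ± 0.08, NR1D2 0.10 ± 0.08) and 0.00 for 19 heat shock genes (Dnajb4 -0.10 ± 0.07, Hspb8 -0.22 ± 0.14). None of these 10 genes had an unadjusted p under 0.05. For the collagen genes, control 35 was far above the other controls, with Col1a1 at 7.42 TPM against 1.36 to 2.51 TPM. Without control 35 the log2 fold change was -0.37 for Col3a1 and -0.28 for Col1a1.

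**Figure D4:**
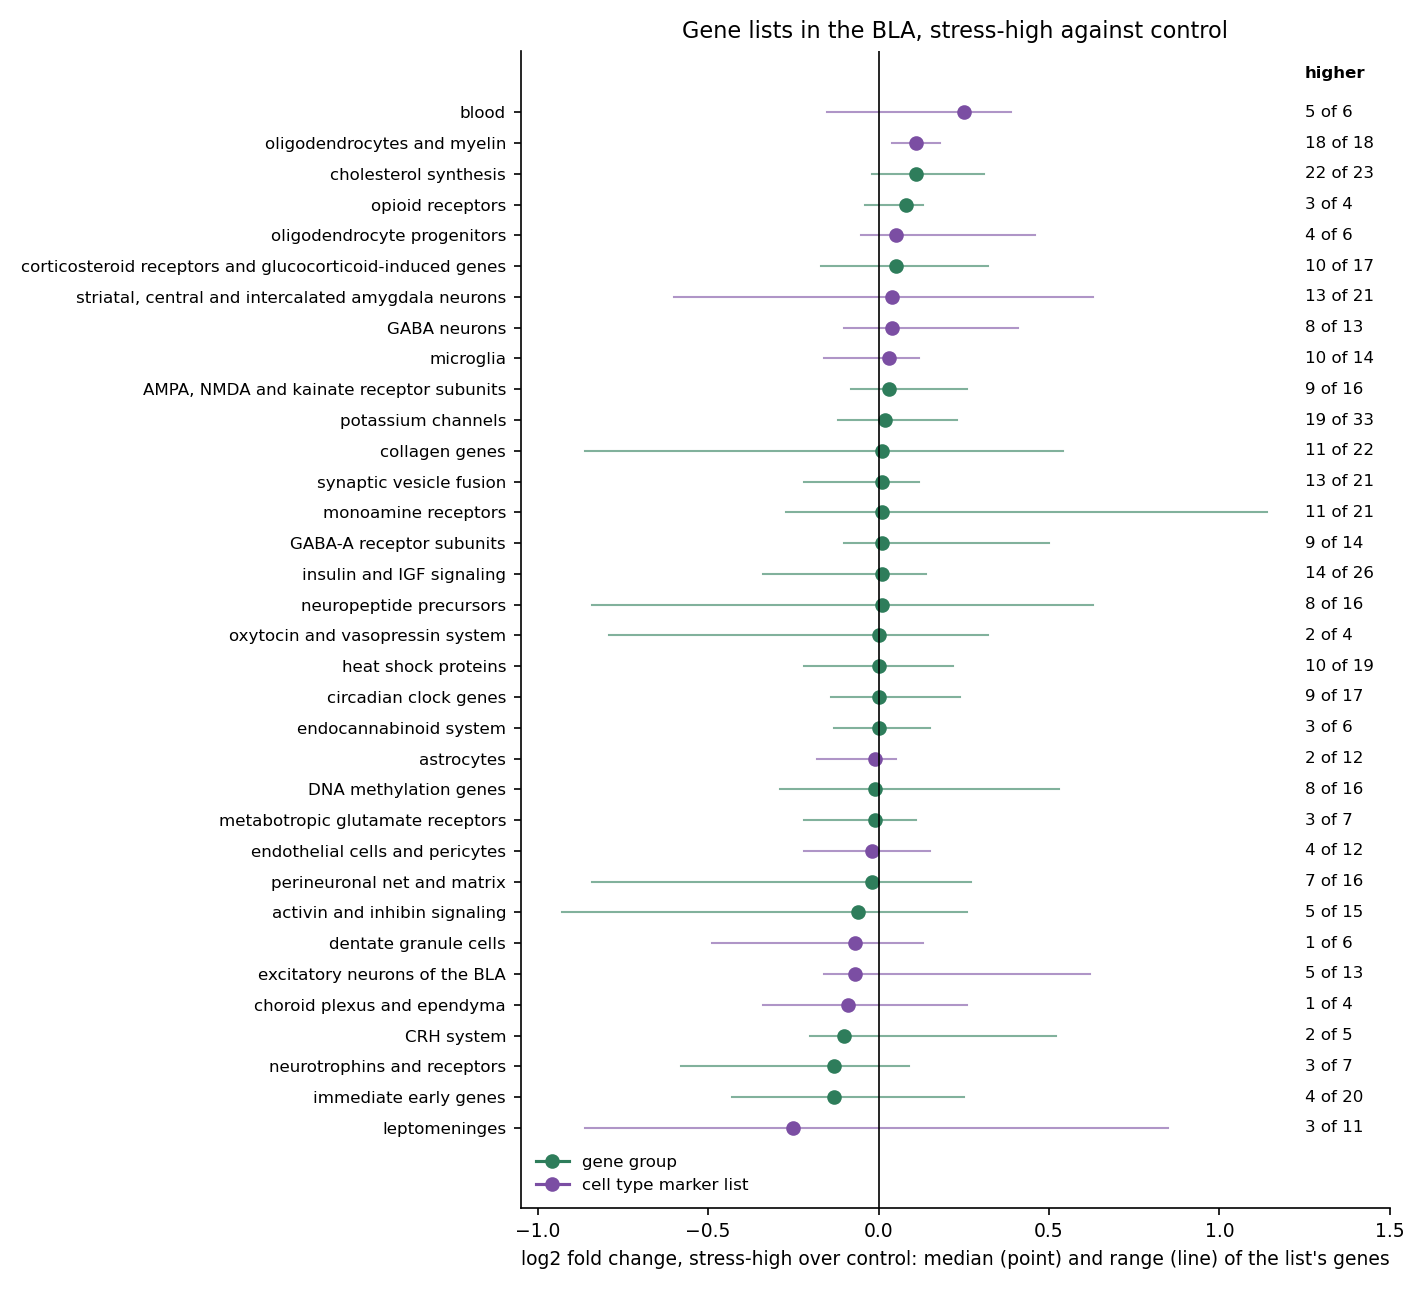
Log2 fold change, stress-high over control (horizontal axis), for each gene list, with points at the median of the tested genes, lines over the range from the lowest to the highest gene, and the number of genes higher at the right. Green lists are gene groups and purple lists are markers of cell types. Blood markers have the highest median (0.25) and leptomeninges markers the lowest (-0.25).

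Markers of cell types were compared because a shift in the punched tissue would move them together. Excitatory neuron markers of the BLA were higher in 5 of 13 genes (median -0.07), with Slc17a6, the glutamate transporter of subcortical neurons, at 0.48 ± 0.27, Rspo1, a marker of some BLA projection neurons, at 0.62 ± 0.35, and Slc17a7 at -0.05 (95% interval -0.28 to 0.17). GABA neuron markers were higher in 8 of 13 genes (median 0.04). Gad2, an enzyme of GABA synthesis, was at 81.9 to 116 TPM in the controls (median 101) and at 113, 131 and 158 TPM in the stress-high animals (0.41 ± 0.17, unadjusted p = 0.0319). Animals 19 and 20 lay above all controls and animal 7 lay just within them. Reln was at 0.27 ± 0.15, and Gad1, the partner enzyme, was at 0.10 (-0.20 to 0.41).

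Of the glial and vascular lists, astrocyte markers were higher in 2 of 12 genes (median -0.01), with Aldh1l1 at -0.18 ± 0.12 and Slc1a2 at -0.10 ± 0.07. Microglia markers were higher in 10 of 14 (median 0.03), with Tmem119 at 0.12 ± 0.09 and C1qb at 0.10 ± 0.10. Markers of endothelial cells and pericytes were higher in 4 of 12 (median -0.02), with Pdgfrb at -0.15 ± 0.10 and Kdr at -0.22 ± 0.19. None of the genes in these 3 lists had an unadjusted p under 0.05.

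Blood and leptomeninges markers had the highest and the lowest median of the lists. Blood markers were higher in 5 of 6 genes (median 0.25), and without stress-high animal 7 in 3 of 6 (median 0.09). The hemoglobin gene Hbb was at 94.98 to 160 TPM in the controls (median 136) and at 204, 165 and 159 TPM in the stress-high animals (0.39 ± 0.15, unadjusted p = 0.0215), and Hbb-b1 was at 0.37 ± 0.15 (unadjusted p = 0.0317). Without animal 7 the log2 fold change of Hbb was 0.20. Summed over the list the stress-high libraries had 605 to 742 TPM and the controls 415 to 740 TPM. The near-identical hemoglobin copies can share reads, which makes each of these genes uncertain.

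Leptomeninges markers were lower in 8 of 11 genes (median -0.25). The median was -0.11 without stress-high animal 20, -0.13 without animal 7, -0.35 without animal 19 and -0.08 against the 3 LOW-label controls alone. Rarres2, which encodes the secreted factor chemerin, was at 28.7 to 53.0 TPM in the controls (median 42.8) and at 27.7, 27.4 and 38.6 TPM in the stress-high animals (-0.41 ± 0.18, unadjusted p = 0.0329). The list average was -0.25, -0.02 and -0.14 in animals 7, 19 and 20 and -0.08 to 0.14 in the controls, so that animals 7 and 20 lay below all controls. The list sums overlapped, at 192 to 205 TPM in the stress-high animals and 185 to 220 TPM in the controls, and Rarres2 in stress-low animals was 0.25 ± 0.17 over the same controls. Markers of choroid plexus and ependyma were higher in 1 of 4 tested genes (Ccdc153 -0.34 ± 0.34, Enkur -0.06 ± 0.13), and those of dentate granule cells in 1 of 6 (C1ql2 -0.49 ± 0.26, Dsp -0.36 ± 0.42).

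Several genes with large fitted differences carry a gene name that the annotation gives to more than 1 gene model, so that reads may have been divided between near-identical copies. The 17 names of this kind in the study's own gene list for the BLA were looked at as single models and as sums. A model of RGD1565183 had the smallest unadjusted p of all genes named here. It was at 45.5 to 76.2 TPM in the controls (median 65.5) and at 17.7, 13.2 and 46.3 TPM in the stress-high animals (-1.33 ± 0.25, unadjusted p = 0.000115). Animals 7 and 19 lay far below the controls and animal 20 lay among them. In the DG the same model was also lower in stress-high animals (-1.09 ± 0.36). The other model of this name, at 423 to 575 TPM in the controls, had -0.03 ± 0.11, and the sum of both had -0.12 ± 0.10 (unadjusted p = 0.244).

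Smg6, a factor of nonsense-mediated decay, had 1 model of its 3 listed at 0 in all 6 controls and at 1.79, 1.09 and 1.19 TPM in the stress-high animals. The sum of its models was 10.04 to 14.8 TPM in the controls and 13.8, 11.3 and 11.4 TPM in the stress-high animals (-0.12 ± 0.10). Of the 2 models of Rnf11l, 1 was listed at 0 in stress-high animals 19 and 20 and in controls 27 and 32, was at 0.05 TPM in animal 7, and was at 56.7 to 67.5 TPM in the other 4 controls. The sum had a log2 fold change of 0.00 ± 0.07. The models of Arid4b had -0.33 ± 0.11 and 0.27 ± 0.10, and their sum had -0.05 ± 0.07. For all 4 names the log2 fold change of the sum lay between -0.12 and 0.00.

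**Figure D5:**
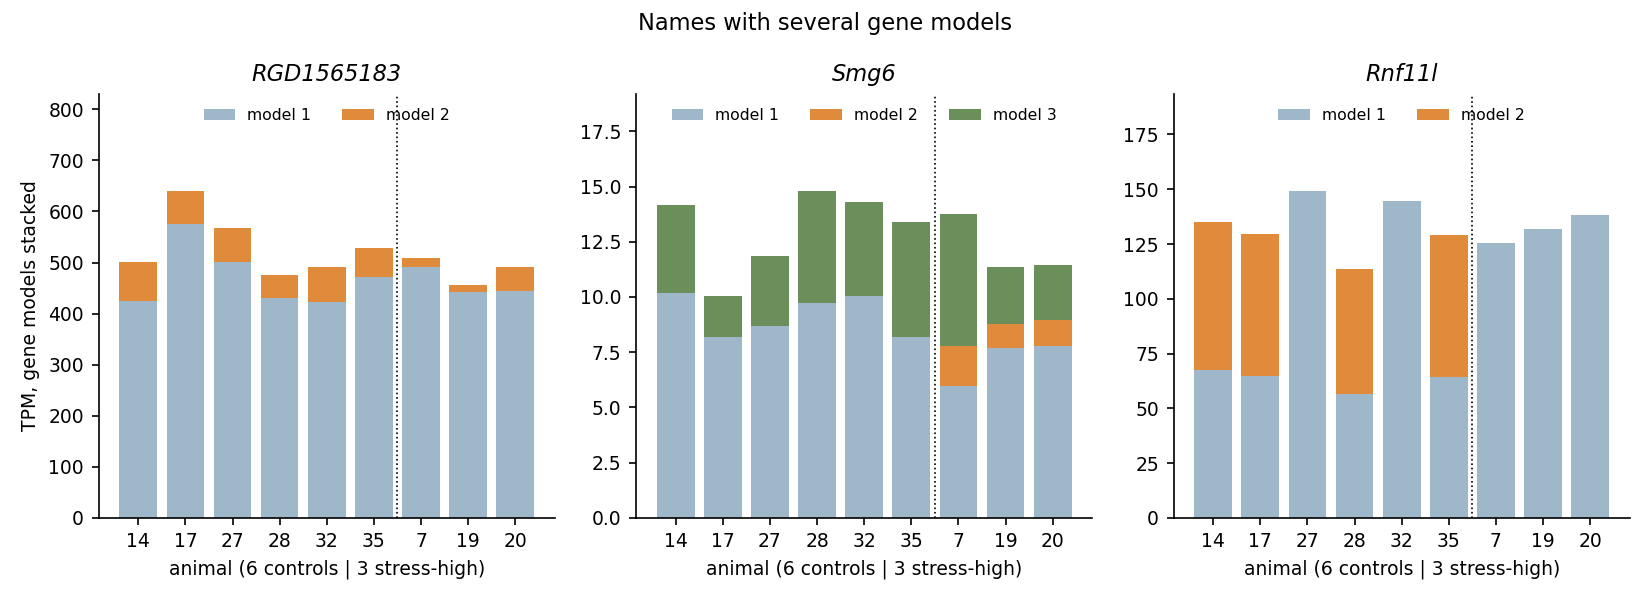
TPM (vertical axis) of the gene models of RGD1565183, Smg6 and Rnf11l, stacked in 1 bar per animal (horizontal axis), with the 6 controls left of the dotted line and the 3 stress-high animals right of it and a color per model. The bars of RGD1565183 reach 475 to 639 TPM in the controls and 455 to 508 TPM in the stress-high animals.

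Of the names in that list with a single model, 18 were tested. In the stress-high group 4 were higher (Mrpl1, Pcp4, Acat2, Ncoa3) and 2 lower (Rarres2, Zfp72) with an unadjusted p under 0.05. Of all genes tested, 2.57% had an unadjusted p under 0.05. The list was drawn up by the study on these same libraries and is therefore no independent evidence of direction. It is not a list of this comparison alone, since the study called Ncoa3 between stress-low and stress-high animals. Zfp72, a zinc finger gene, is named because it completes this count, chosen after its values were seen, and had a log2 fold change of -1.03 ± 0.40 (unadjusted p = 0.0202).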

How the data were processed

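Poly-A RNA of left BLA and left DG punches was sequenced in 25 libraries. Reads had been mapped by the authors to Rn5 (STAR 2.6.0a, Ensembl annotation) and summarized per gene by RSEM 1.3.1. The authors deposited, per region, a stacked table of 26312 identifiers by library that holds the expected count, not normalized between libraries, and the TPM. The deposited TPM is a level per transcript length, scaled within a library. In the 9 BLA libraries compared, between 18.81% and 26.12% of expected counts per library were not whole. In the DG libraries it was 5.67% to 6.38%, and what this means for the comparison of the regions was not tested. In the annotation, 5742 identifiers had no gene name and 600 names had several gene models. All library names were mapped to samples (0 left over).

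Expected counts were rounded, filtered (filterByExpr, minimum count 10), TMM normalized (factors 0.977 to 1.04) and tested with edgeR 4.0.16 by quasi-likelihood in 12 BLA libraries with 3 group means (common biological coefficient of variation 0.118). The 3 stress-low libraries shared the estimate of spread. The study's own test, EBSeq, was not used here. The Benjamini-Hochberg adjustment had a threshold of 0.05, and 95% intervals came from the SE. The difference between regions was an interaction in 1 fit with 6 group means, in which the DG control of animal 35 was left out. Principal components were taken from log2(TPM + 1), restricted to a mean TPM of 1 or more. The scripts were tested on simulated data. Alternatives used DESeq2 1.42.0, limma 3.58.1, other filters, sets of libraries and pseudocounts.

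Named genes were the 10 with the smallest unadjusted p in each direction (single gene model, mean TPM of 1 or more), the 2 with the smallest unadjusted p of each of 35 lists, and a fixed set of stress-related genes. Gene lists were matched by symbol. Some members of the cholesterol list count in its totals and are not reported here singly. The members and lists were chosen with earlier results of these data known. Each library is from 1 animal, so p-values measure the spread between animals. The depth was 12709493 to 22801247 expected counts per library, and the median SE was 0.11 on the log2 scale.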

Additional observations from a re-analysis of the deposited data

Results flagged for a closer look

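Of 144 sets of control values checked (the named genes and the summed lists in the 6 BLA controls), 11 had a highest or lowest animal whose gap to its nearest neighbor exceeded 0.625 of the control range (Dixon's criterion for 6 samples). Chance flags about 1 in 20 such sets where values are normally distributed, which was not tested for these TPM values. The sets also overlap, because single genes such as Pcp4 and PENK are members of summed lists. All 11 were a single high control. Animal 35 held 6 of them. The treatment field and name of its BLA library disagree, whereas both labels of its DG library are those of a control. Its TPM values were 259 for Pcp4 (next control 218), 6.65 for Col3a1 (2.61), 7.42 for Col1a1 (2.51), 645 for PENK (320) and 228 for Gad1 (169). Its summed TPM was 1481 (850) for markers of striatal, central and intercalated amygdala neurons. Animal 27 held 3, with 78.8 TPM for Hbb-b1 (next control 49.2), 25.0 for Sgk1 (18.5) and 61.7 for Egr1 (50.5). Animal 32 was at 13.7 TPM for Oprk1 (10.5), and animal 14 at 2.91 TPM for Ccdc153 (1.6). For Pcp4 the high control lay on the side of the stress-high animals, which were all still above it.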

How the results depend on the processing

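Of 22 alternatives, 17 left the count of genes with an adjusted p under 0.05 at 0. It was 2 with DESeq2 (models of RGD1565183, adjusted p = 0.000302, and CALCOCO1), 1 in edgeR with the 2 groups alone (a model of Smg6), 2 with limma on log2(TPM + 1) without a filter (both unnamed), 2 with only the LOW-label controls (Psmb6 and the same Smg6 model), and 0 to 1 when 1 library was left out, the 1 being RGD1565183 (-1.91, adjusted p = 0.00113) without stress-high animal 20. The genes with an unadjusted p under 0.05 were 600 without a filter on low counts, 636 with a covariate for an animal number above 20 and 607 with only the HI-label controls, and 291 (without animal 19) to 494 (without animal 7) with 1 library left out. The difference between regions gave 2 genes with DESeq2. With the title's replicate number as a replicate block there were 0 genes at an adjusted and 474 at an unadjusted p under 0.05. Same-numbered animals had correlations of -0.0283 to 0.0642 in their deviations from the group means, with no other pairs set beside them. The main fit did not use the numbers as pairs, and whether same-numbered animals shared a cohort was not tested. No animal number of the controls occurs among the stress-high animals. Of 2317 alternative values of 106 named gene models, 2251 kept direction and side of the threshold, 2 (RGD1565183, above) passed it, and 64, in 18 models, had the opposite direction, all of genes whose unadjusted p was above 0.05.

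With only LOW-label controls the opposite values were Sgk1 -0.11, Fos 0.06, Egr1 -0.01, Npy -0.18, Sst 0.01, PENK -0.13, Igf2 0.03, Slc17a7 0.04 and Gad1 -0.03. With HI-label controls alone they were NR3C1 -0.01 and Htr2c 0.09. With animal 2 included they were Sgk1 -0.04, Egr1 -0.03, Sst 0.01, PENK -0.41 and Htr2c 0.04. With the animal-number covariate they were Avpr2 0.29, NR3C1 -0.06, Insr 0.02, Grin1 -0.01 and Htr2c 0.26, and under the replicate block NR3C1 -0.01 and Htr2c 0.05. With limma on log2(TPM + 1), log2(TPM + 0.1) and log2(TPM + 1) unfiltered, Fos had 0.02, 0.03 and 0.02, Sst 0.00, 0.00 and 0.00, and Htr2c 0.01, 0.01 and 0.01. Htr2c was 0.00 without a filter and with models of a name summed. With 1 library left out, the values ran from -0.18 to 0.02 for Crhr1, -0.44 to 0.06 for Kdr, -0.10 to 0.00 for Enkur, -0.07 to 0.06 for NR3C1, -0.03 to 0.10 for Fkbp5, -0.17 to 0.16 for Sgk1, -0.32 to 0.17 for Fos, 0.00 to 0.09 for Egr1, -0.07 to 0.06 for Sst, -0.07 to 0.36 for PENK, -0.09 to 0.01 for Insr, -0.08 to 0.00 for Slc17a7 and -0.05 to 0.07 for Htr2c. The cause was not tested.

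The counts of list members under these alternatives were added after seeing the data. Cholesterol genes were higher in 18 (animal-number covariate) to 23 of 23, myelin genes in 14 to 18 of 18, and immediate early genes were lower in 15 to 19 of 20. At this depth and with 3 stress-high animals the median SE was 0.11 on the log2 scale, and the SE was larger for genes of about 1 TPM (0.42 for Drd5, 0.38 for Npsr1).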
